A study of Homo sapiens with 6 samples.

Results

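SATB1, its antisense transcript SATB1-AS1 and the related homeobox gene CUX1 were followed after knockdown of SATB1 in Jurkat, a human cell line of T cell leukaemia origin. The 3 genes were taken by their symbols in the GENCODE 29 annotation and make up 3 of the 58735 genes counted. RNA-seq was run on 3 libraries of cells given a lentiviral short hairpin RNA against SATB1 (shSATB1) and on 3 libraries of cells given a control hairpin in the same kind of vector (shCtrl). Both groups were cultured in the same medium and carry no other stated change, and each rests on 1 vector. Nothing states that the 3 libraries of a group came from separate cultures or infections. The p-values therefore weigh differences only against library-to-library spread, which could be technical.

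SATB1 is a DNA-binding protein of thymocytes and T cells that attaches to AT-rich DNA and helps to fold chromatin into loops. It belongs to the CUT class of homeobox proteins, which carry CUT domains beside a homeodomain. CUX1, also called CCAAT displacement protein, is a widely expressed CUT-class repressor and activator that has been reported to bind SATB1. Other CUT-class genes analysed here are CUX2, ONECUT1, ONECUT2 and ONECUT3. SATB1-AS1 is a long noncoding RNA read from the opposite strand, starting beside the SATB1 start.

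The libraries held 26626539 to 28143385 reads in genes in shSATB1 and 27737353 to 28913623 in shCtrl. Of all reads, 11.7%, 10.9% and 11.6% were assigned to no annotated exon in shSATB1 1, 2 and 3, and 10.2%, 7.77% and 9.36% in shCtrl 1, 2 and 3. This share, called the unannotated share here, did not overlap between the groups and was higher in shSATB1. It is given again beside the results it moves with. As the strand setting of the counting is not given, it may include reads in exons on the other strand. All 10 T cell markers checked, among them CD3E, LCK and ZAP70, were detected, and their summed level was 3356 to 3629 CPM in shSATB1 and 3649 to 4111 CPM in shCtrl. Of these, TRAC rose 1.38-fold (edgeR, adjusted p = 0.000580) and 5 fell, where 30.9% of all 17520 genes tested passed in either direction. With the unannotated share as a covariate in edgeR, 2 of the 10 rose and 0 fell, where 12.1% of all genes passed. The 12 genes listed as markers of other cell types summed to 335 to 343 CPM in shSATB1 and 422 to 486 CPM in shCtrl. Of the 5 tested, PECAM1 fell to 94.3 ± 2.14 CPM in shSATB1, against 174.8 ± 1.78 CPM in shCtrl (SD, n = 3 each; edgeR, adjusted p = 3.75e-07), CD79A also fell and COL1A1 rose. With the covariate only PECAM1 passed, at a log2 fold change of -0.90 (edgeR, adjusted p = 3.44e-12). Most of the sum of these 12 genes was VIM, PECAM1, CD79A and COL1A1, and EPCAM was at 0 in all 6 libraries. Jurkat is 1 cell line, so that sum is not a measure of other cells. The part of these markers in the results below was not tested. CPM here means reads scaled to a common library size, and levels are compared between genes only as RPKM, which is CPM per kilobase of annotated exon.

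SATB1 (ENSG00000182568) lies on chromosome 3 from 18345387 to 18445588 on the minus strand in hg38. SATB1-AS1 (ENSG00000228956) lies on the plus strand from 18445024 to 18920401. The annotated spans overlap by 565 bases around the shared start region and have 0 exon bases in common. Of the SATB1-AS1 exon bases, 419 (3.10%) lie in introns of SATB1. SATB1 shares 211 of its 13409 exon bases with the same-strand gene TBC1D5, and reads in these are uncertain. RefSeq lists 4 starts for SATB1 and 1 for SATB1-AS1, and the outermost SATB1 start lies 355 bases from that of SATB1-AS1. The 250 bases before this pair of RefSeq starts are shown because SATB1, which the hairpin targets, and SATB1-AS1 start beside each other in opposite directions. Both are from RefSeq on GRCh38.p14, 5′ to 3′ on the gene's own strand, with CG dinucleotides in capitals. The SATB1 window is chr3:18445593-18445842 on the minus strand and the SATB1-AS1 window is chr3:18444987-18445236 on the plus strand.
SATB1: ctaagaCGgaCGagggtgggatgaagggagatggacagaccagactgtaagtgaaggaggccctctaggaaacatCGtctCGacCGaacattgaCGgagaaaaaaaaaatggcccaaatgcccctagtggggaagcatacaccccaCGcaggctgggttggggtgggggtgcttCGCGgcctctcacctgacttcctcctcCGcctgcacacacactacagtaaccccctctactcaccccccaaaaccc
SATB1-AS1: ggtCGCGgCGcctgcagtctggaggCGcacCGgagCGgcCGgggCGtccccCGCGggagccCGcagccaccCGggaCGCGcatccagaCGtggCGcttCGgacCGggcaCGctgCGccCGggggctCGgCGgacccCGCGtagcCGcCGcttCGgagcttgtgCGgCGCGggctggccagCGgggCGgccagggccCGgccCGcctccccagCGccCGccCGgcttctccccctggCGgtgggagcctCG
The SATB1 window had 10 CG dinucleotides and a GC content of 57.2%, and 47.8% of the 35116 RefSeq windows of this length had fewer CG dinucleotides. The SATB1-AS1 window had 40 CG dinucleotides and a GC content of 82%, and 97.8% of windows had fewer. CCAAT (the box in CUX1's other name), ATCGAT (a core that CUX1 is known to bind) and TATAAA (the TATA box) were searched on both strands. Neither printed window held a match, while among the 300-base windows at the 4 SATB1 starts 2 held CCAAT. Of all RefSeq windows of 300 bases, 34.6% held CCAAT, 0.763% ATCGAT and 11.5% TATAAA. The absence of these letters in the windows says nothing of binding by any factor.

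SATB1 fell in the cells given its hairpin. Its level was 101.8, 100.2 and 104.1 CPM in shSATB1 and 279.1, 258.5 and 259.3 CPM in shCtrl, from 2796 to 3018 reads in shSATB1 and 7022 to 7778 reads in shCtrl. The shSATB1 libraries lay close together and far below all shCtrl libraries. In bulk RNA, less SATB1 RNA per cell and fewer cells expressing it cannot be told apart. The shSATB1 mean was 38.4% of the shCtrl mean (95% interval 35.1% to 42.1%), or -1.38 in log2 (standard error 0.0611; edgeR quasi-likelihood test, adjusted p = 1.11e-08). Of all 17520 genes tested, 30.9% passed the adjusted threshold of 0.05, 16.6% lower and 14.3% higher in shSATB1. Among the 9771 genes with at least 10 CPM, 5 had a lower log2 fold change than SATB1. In RPKM, SATB1 stood at rank 6089 to 6251 of 17520 genes in the shSATB1 libraries and at rank 2329 to 2674 in the shCtrl libraries. With the unannotated share as a covariate the log2 fold change was -1.48 (edgeR, adjusted p = 8.59e-21). These reads count all SATB1 isoforms together, and the annotation lists 18 transcripts, 13 of them coding.

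**Figure D1:**
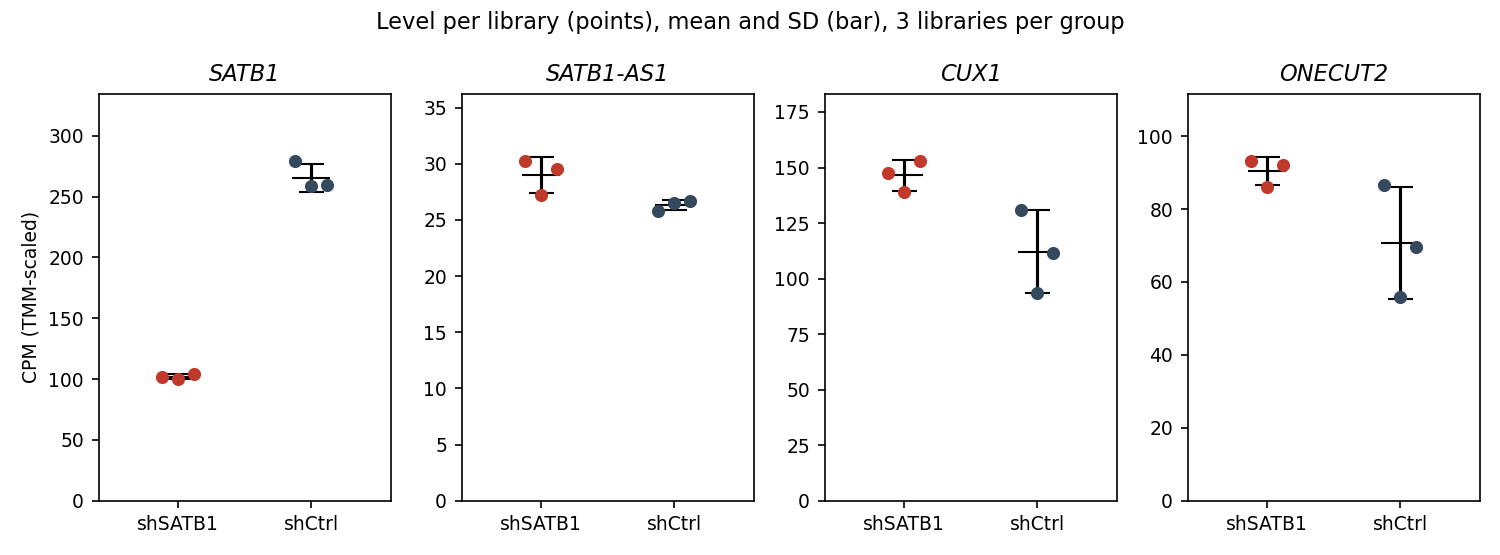
Level in CPM (vertical axis, starting at 0) of SATB1, SATB1-AS1, CUX1 and ONECUT2 in shSATB1 and shCtrl libraries, as points, with mean and SD as bars over 3 libraries each. SATB1 stands at 100.2 to 104.1 CPM in shSATB1 and 258.5 to 279.1 CPM in shCtrl. SATB1-AS1 and CUX1 have no overlap between the groups, like 45.1% of all genes tested, and ONECUT2 overlaps.

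SATB1-AS1 did not pass the test. Its level was 30.2, 27.2 and 29.5 CPM in shSATB1 and 25.8, 26.5 and 26.7 CPM in shCtrl, from 720 to 857 reads per library. Every shSATB1 library was above every shCtrl library, by as little as the gap between 27.2 and 26.7 CPM. In log2 the difference was 0.14 (standard error 0.0742), and the fold of 1.10 had a 95% interval of 0.986 to 1.23 (edgeR quasi-likelihood test, adjusted p = 0.172). A fall of the size seen for SATB1 and a rise of more than 1.23-fold lie outside this interval. No overlap between the groups in CPM was seen for 45.1% of all genes tested. With the unannotated share as a covariate the log2 fold change was 0.12 (edgeR, adjusted p = 0.638).

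The balance between the transcripts of this locus was shifted towards SATB1-AS1 in all 3 shSATB1 libraries. For every 100 SATB1 reads there were 29.7, 27.2 and 28.4 SATB1-AS1 reads in shSATB1 and 9.26, 10.2 and 10.3 in shCtrl. Within a library this ratio does not depend on library size. It was 2.86-fold higher in shSATB1, a log2 difference of 1.52 (two-sided exact permutation test, p = 0.1, the smallest that 3 against 3 can give). The pair was one of 164 pairs of a gene and an antisense transcript named after it with -AS1, both with at least 2 CPM. In 25 of these pairs (15.2%, against 16.6% of all genes) the gene fell, and the antisense transcript then fell in 2, rose in 3 and was not called in 20, the SATB1 pair among them. The 5 called of 25 make 20%, against 30.9% of all genes. The difference between antisense and gene log2 fold changes was 1.52 for SATB1, the largest of the 164 pairs, with UCKL1 next at 1.08 and a median of -0.03. SATB1 is the hairpin's target, and its own log2 fold change of -1.38, against 0.14 for SATB1-AS1, makes up most of this 1.52. The ratio, its p-value and the rank therefore follow largely from the fall of the targeted gene. Pairs named by symbol need not overlap, and the strand setting of the counting is not given, so reads in overlapping exons of other pairs cannot be told apart.

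CUX1 (ENSG00000257923, chromosome 7, 101815904 to 102283958, plus strand, hg38) was higher in shSATB1, where its level was 147.6, 138.9 and 152.8 CPM, against 131.0, 93.5 and 111.7 CPM in shCtrl. The groups did not overlap, as for 45.1% of all genes tested, and the shCtrl libraries were spread more widely than the shSATB1 libraries. The means were 146.4 ± 7.03 CPM in shSATB1 and 112.1 ± 18.7 CPM in shCtrl (SD, n = 3 each), from 2571 to 4431 reads per library. As for SATB1, the reads pool all isoforms, with 23 transcripts annotated, 15 of them coding. CUX1 rose 1.31-fold (95% interval 1.13 to 1.51), or 0.39 in log2 (standard error 0.0963; edgeR quasi-likelihood test, adjusted p = 0.00800). Of all genes tested, 14.3% rose, and 715 of 9771 genes with at least 10 CPM had a higher log2 fold change. Leaving out single libraries gave log2 fold changes of 0.28 (without shCtrl 2) to 0.51 (without shCtrl 1), all with an adjusted p under 0.05 in edgeR.

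The rise of CUX1 moved with the unannotated share. In order of that share, from shCtrl 2 at 7.77% to shSATB1 1 at 11.7%, the CUX1 level was 93.5, 111.7, 131.0, 138.9, 152.8 and 147.6 CPM. With the share as a covariate the log2 fold change was -0.04 (edgeR, adjusted p = 0.805), and the direction turned. Because the share separates the groups, a change of CUX1 with the hairpin and one with the share cannot be told apart in these 6 libraries. Tested for a change beyond 1.2-fold, CUX1 did not pass (edgeR glmTreat, adjusted p = 0.212). CUX1 spans 468 kb, and of 137 genes with a span of at least 400 kb and at least 10 CPM, 44 (32.1%) rose and 28 fell. Their median log2 fold change was 0.10, with 24 genes above CUX1, and with the covariate it was -0.07. Of all 9771 genes with at least 10 CPM, 1728 rose and 2532 fell. Sorted by span into 5 groups, 8.75% of the shortest of these genes rose and 39.6% fell. Of the longest, 30.2% rose and 14.9% fell. Whether span has a part in the rise of CUX1 was not tested.

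**Figure D2:**
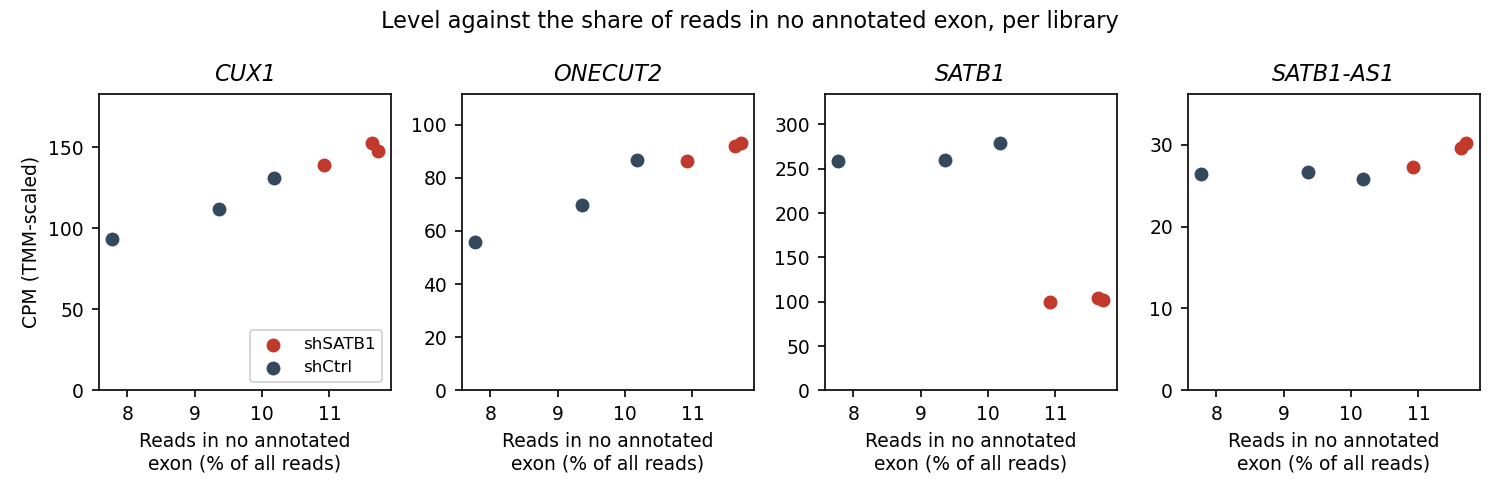
Level in CPM (vertical axis, from 0) against the unannotated share for CUX1, ONECUT2, SATB1 and SATB1-AS1, one point per library. The horizontal axis is the percent of all reads assigned to no annotated exon. CUX1 runs from 93.5 to 152.8 CPM along the share, while SATB1 falls into 2 levels by group, with means of 102.0 CPM in shSATB1 and 265.6 CPM in shCtrl.

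Measured per length of all annotated exons, CUX1 and SATB1 changed order. That length is 13409 bases over 18 transcripts for SATB1 and 17789 bases over 23 for CUX1. Which transcripts were expressed was not tested, so the order holds for this measure only. CUX1 had 8.23 ± 0.395 RPKM in shSATB1 and 6.30 ± 1.05 RPKM in shCtrl, while SATB1 had 7.61 ± 0.145 RPKM in shSATB1 and 19.8 ± 0.868 RPKM in shCtrl (SD, n = 3 each). The ratio of CUX1 to SATB1 per kilobase of exon was 1.09, 1.04 and 1.11 in shSATB1 and 0.354, 0.273 and 0.325 in shCtrl. It was 3.43-fold higher in shSATB1 (log2 difference 1.78, two-sided exact permutation test, p = 0.1, the smallest that 3 against 3 can give). Most of this difference is the log2 fold change of -1.38 of SATB1, the hairpin's own target, against 0.39 for CUX1. CUX1 in shCtrl lay below SATB1 in shSATB1, so the change of order also rests on the rise of CUX1, which was not seen with the covariate. By this measure SATB1-AS1 stood lowest of the 3 genes, with 2.15 ± 0.116 RPKM in shSATB1 and 1.95 ± 0.0322 RPKM in shCtrl. Its length of 13505 bases is taken over 73 annotated transcripts.

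Of the 6 CUT-class genes analysed here, 5 were tested, and SATB1 fell while CUX1 and ONECUT2 rose. The calls made up 60% of the tested genes, the hairpin's own target included, against 30.9% of all genes. The median log2 fold change was 0.35, against 0.01 over all genes, and turned to -0.13 with the covariate. ONECUT2, a liver and pancreas transcription factor, had 93.1, 86.1 and 92.0 CPM in shSATB1 and 86.5, 55.8 and 69.7 CPM in shCtrl. The groups overlapped, and the shCtrl levels followed the unannotated share as those of CUX1 did. The rise was 1.28-fold (95% interval 1.08 to 1.52, log2 fold change 0.35, edgeR adjusted p = 0.0303). The call was lost without shCtrl 3 (adjusted p = 0.0884), shSATB1 1 (0.0943), shSATB1 2 (0.0683) or shSATB1 3 (0.103) in edgeR, and the log2 fold change was 0.21 without shCtrl 2. With the covariate it was -0.19 (edgeR, adjusted p = 0.203), and SATB1 was then the 1 gene of the 5 that passed. In that fit 12.1% of all genes passed.

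ONECUT1, which acts in liver and pancreas development, averaged 3.60 ± 0.326 CPM in shSATB1 and 2.47 ± 0.929 CPM in shCtrl (edgeR, log2 fold change 0.54, adjusted p = 0.0825). It passed without shCtrl 1, at a log2 fold change of 0.88 (edgeR, adjusted p = 0.000838), and with no low-count filter (0.53, adjusted p = 0.0311), and stood at -0.13 with the covariate. CUX2 averaged 0.438 ± 0.141 CPM in shSATB1 and 0.436 ± 0.158 CPM in shCtrl, and ONECUT3 had 22 reads in all in shSATB1 and 15 in shCtrl and was not tested. The 6 genes together gave 22.6, 21.7 and 22.9 RPKM in shSATB1 and 34.5, 28.5 and 30.5 RPKM in shCtrl. SATB1 was 33.9 ± 0.454% of this sum in shSATB1 and 63.8 ± 3.65% in shCtrl (SD, n = 3 each). The summed level was thus lower in every shSATB1 library, with the hairpin's own target as its largest part in shCtrl. ONECUT2 had 5.57 ± 0.231 RPKM in shSATB1 and 4.35 ± 0.949 RPKM in shCtrl. In mean RPKM the order in shSATB1 was CUX1, SATB1, ONECUT2 and ONECUT1, and in shCtrl it was SATB1, CUX1, ONECUT2 and ONECUT1, with SD ranges of neighbours overlapping only for CUX1 and ONECUT2 in shCtrl.

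**Figure D3:**
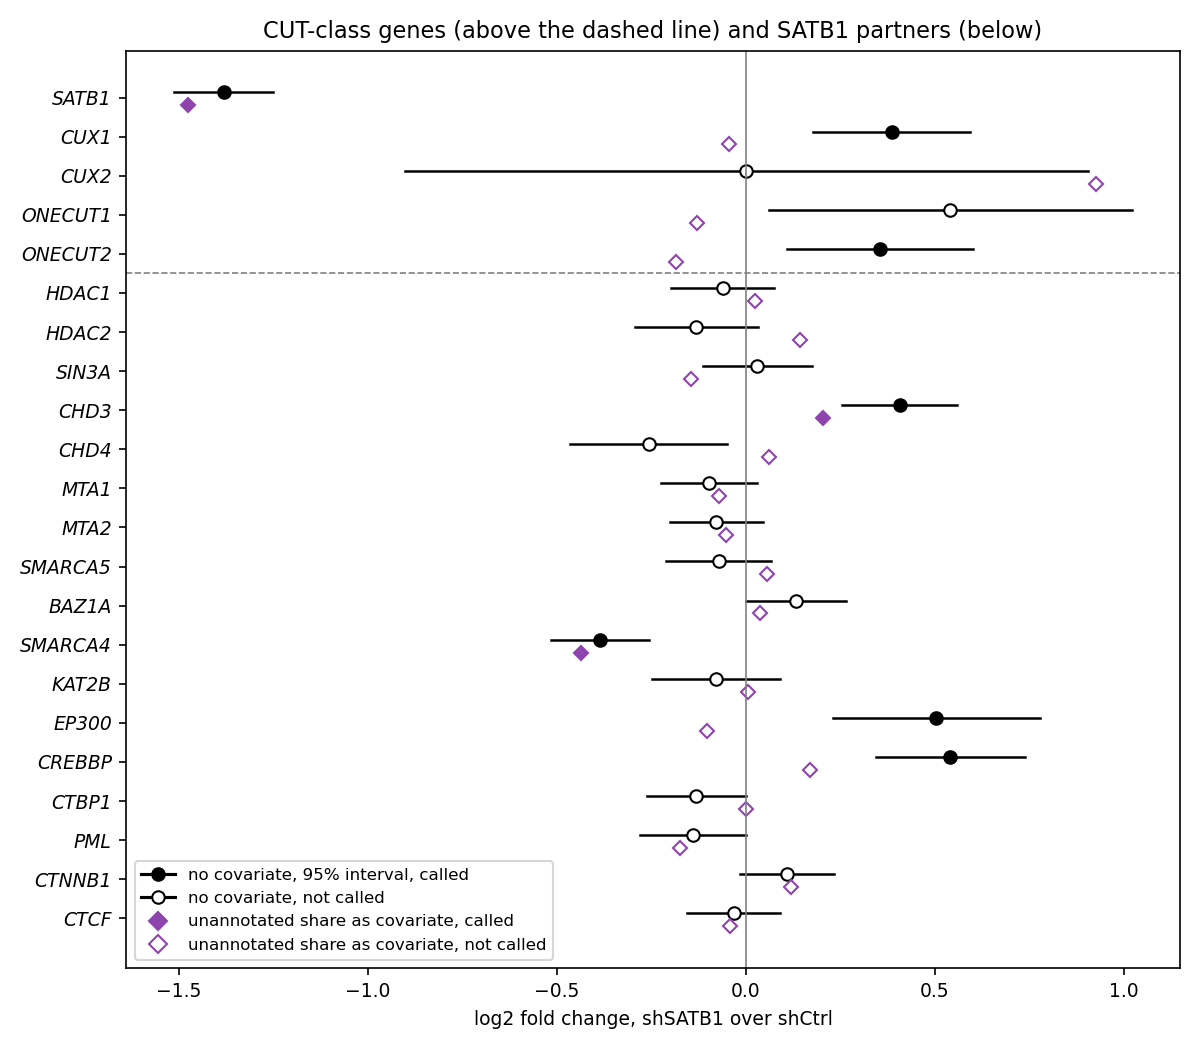
Log2 fold change of shSATB1 over shCtrl (horizontal axis) for the 5 tested CUT-class genes and 17 further partner genes, with 95% intervals without a covariate (circles) and the values with the unannotated share as a covariate (diamonds); filled symbols passed the test. SATB1 stays at -1.38 and -1.48, whereas CUX1 and ONECUT2 move from 0.39 and 0.35 to -0.04 and -0.19.

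Proteins reported to work with SATB1 were described from a list of 18, all of which were tested. Of these, 4 rose and 1 fell (27.8%, against 30.9% of all genes), with a median log2 fold change of -0.07. CUX1 is one of the 4. CREBBP, a histone acetyltransferase, had 148.8 ± 1.33 CPM in shSATB1 and 102.3 ± 16.3 CPM in shCtrl (edgeR, log2 fold change 0.54, adjusted p = 0.000677). Its relative EP300 had 207.2 ± 6.36 CPM in shSATB1 and 146.1 ± 36.5 CPM in shCtrl (0.50, edgeR, adjusted p = 0.00866). CHD3, a nucleosome remodeller of the NuRD complex, had 820.3 ± 22.3 CPM in shSATB1 and 618.9 ± 55.7 CPM in shCtrl (0.41, edgeR, adjusted p = 0.000830). SMARCA4, the ATPase of SWI/SNF, fell to 453.3 ± 15.6 CPM in shSATB1, against 592.0 ± 19.6 CPM in shCtrl (edgeR, log2 fold change -0.39, adjusted p = 0.000409). With the covariate the log2 fold changes were 0.17 for CREBBP, -0.10 for EP300, 0.20 for CHD3 and -0.43 for SMARCA4, and only CHD3 (adjusted p = 0.0488) and SMARCA4 (1.06e-05) passed in edgeR. In that fit 12.1% of all genes passed. Without shCtrl 1, 8 of the list passed. With all libraries and no covariate, 13 of the list did not pass, HDAC1, SMARCA5 and CTCF among them. In that fit CTCF, the insulator protein of the study's title, had a log2 fold change of -0.03 (edgeR, adjusted p = 0.709).

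Enzymes that modify SATB1 or CUX1 were 10, of which 9 were tested, 1 rose and 3 fell (44.4%, against 30.9% of all genes), with a median log2 fold change of 0.00017. PRKCQ, the protein kinase C theta of T cell receptor signalling, rose to 115.8 ± 2.80 CPM in shSATB1, against 94.1 ± 2.70 CPM in shCtrl (edgeR, 0.30, adjusted p = 0.00189). PRKCB fell to 144.9 ± 2.23 CPM in shSATB1, against 176.5 ± 9.31 CPM in shCtrl (edgeR, log2 fold change -0.28, adjusted p = 0.00328). PRKCA fell to 393.2 ± 8.46 CPM in shSATB1, against 483.6 ± 65.0 CPM in shCtrl (edgeR, -0.30, adjusted p = 0.0153). CSNK2A1, the catalytic subunit of casein kinase 2, fell to 258.2 ± 5.92 CPM in shSATB1, against 289.9 ± 5.27 CPM in shCtrl (edgeR, -0.17, adjusted p = 0.0407). The calls of PRKCA and CSNK2A1 were lost without shCtrl 3, shSATB1 1, 2 or 3, so that 2 of the 9 passed without any one of these. With the covariate PRKCA stood at -0.64 and CSNK2A1 at -0.15 (log2), and 1 gene rose and 2 fell. In that fit 12.1% of all genes passed. CTSL, a protease that cleaves CUX1, had 0 reads in all 6 libraries.

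Among 62 other homeobox genes, 45 were tested, of which 12 rose (26.7%, where 14.3% of all genes rose) and 33 did not pass, with a median log2 fold change of 0.16. ZFHX3, an AT-motif-binding factor, had 33.6 ± 2.05 CPM in shSATB1 and 15.6 ± 3.55 CPM in shCtrl (edgeR, log2 fold change 1.11, adjusted p = 3.31e-05). DLX2, a factor of forebrain and craniofacial development, had 7.18 ± 0.230 CPM in shSATB1 and 4.49 ± 0.230 CPM in shCtrl (0.68, edgeR, adjusted p = 0.000899). POU4F1, a sensory neuron factor, had 57.1 ± 2.37 CPM in shSATB1 and 39.8 ± 0.173 CPM in shCtrl (0.52, edgeR, adjusted p = 6.97e-05). These 3 also passed with the covariate, at log2 fold changes of 0.54 for ZFHX3, 0.76 for DLX2 and 0.50 for POU4F1. ZFHX2 (log2 fold change 0.62), HMBOX1 (0.54), TSHZ3 (0.44), HOXB3 (0.41) and POU2F2 (0.31) rose without the covariate and did not pass with it, where HMBOX1 stood at -0.08. POU2F2, an octamer-binding factor of lymphocytes, also lost its call without shCtrl 2 (edgeR, adjusted p = 0.0670), shSATB1 1 (0.0913) or shSATB1 3 (0.0912). With the covariate 5 of the 45 rose and 2 fell, where 12.1% of all genes passed in either direction.

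Genes near the SATB1 and CUX1 loci were listed with their calls. Of 61 annotated genes within 1 Mb of SATB1 and SATB1-AS1 or 500 kb of CUX1, 22 passed the low-count filter, 2 rose and 2 fell (18.2%, against 30.9% of all genes). With only 22 genes tested, this share is not read as a result about the neighbours. TBC1D5, a RAB GTPase regulator whose annotated span covers most of SATB1, had 109.1 ± 5.76 CPM in shSATB1 and 110.6 ± 7.73 CPM in shCtrl (log2 fold change -0.02, edgeR, adjusted p = 0.856, fold interval 0.890 to 1.09). Its direction turned without shCtrl 1 (0.02) and without shSATB1 3 (0.02). KCNH8, a potassium channel gene on the plus strand from 19148454 to 19535646, downstream of SATB1-AS1, rose to 2.88, 2.86 and 2.93 CPM in shSATB1, against 1.87, 1.38 and 1.07 CPM in shCtrl. Its groups did not overlap, as for 45.1% of all genes tested, and the fold was 2.00 (95% interval 1.45 to 2.75, edgeR adjusted p = 0.00322). With the covariate KCNH8 stood at 0.71 (edgeR, adjusted p = 0.259). AC132807.2, RAD23BP1 and EFHB, the other tested genes on this side, did not pass.

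On the CUX1 side, SH2B2, an adaptor of receptor signalling directly beyond the end of CUX1, fell to 7.33 ± 0.752 CPM in shSATB1, against 9.89 ± 0.549 CPM in shCtrl (log2 fold change -0.43, edgeR, adjusted p = 0.0102), and lost the call without shSATB1 1 (0.0678). POLR2J, an RNA polymerase II subunit, stood at -0.23 (edgeR, adjusted p = 0.0396) and SPDYE6 at 0.72 (0.0466). POLR2J passed only without shCtrl 1 among the single-library omissions (-0.29, against -0.25 to -0.16 otherwise), and so did SPDYE6 (1.15, against 0.42 to 0.77). With the covariate none of these 3 passed, nor did KCNH8: SH2B2 stood at -0.46 (edgeR, adjusted p = 0.116), POLR2J at -0.01 (0.969) and SPDYE6 at -0.44 (0.369). POLR2J and SPDYE6 belong to families with near-identical copies here, among which reads are uncertain, as are those of POLR2J2, POLR2J3, SPDYE2 and SPDYE2B, which did not pass. The remaining tested genes, IFT22, PRKRIP1, AC091390.3, AC073517.1, ORAI2, ALKBH4, LRWD1, RASA4 and FAM185A, did not pass either. With the covariate IFT22 (0.38, edgeR, adjusted p = 0.0466) and ALKBH4 (0.44, adjusted p = 0.0456) passed, the 2 neighbours called in that fit, where 12.1% of all genes passed. Over both sides the 18 genes that did not pass had log2 fold changes of -0.42 to 0.55, and without shCtrl 1, 9 of the 22 passed, without shCtrl 2, shCtrl 3 or shSATB1 3, 2, and without shSATB1 1, 1.

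**Figure D4:**
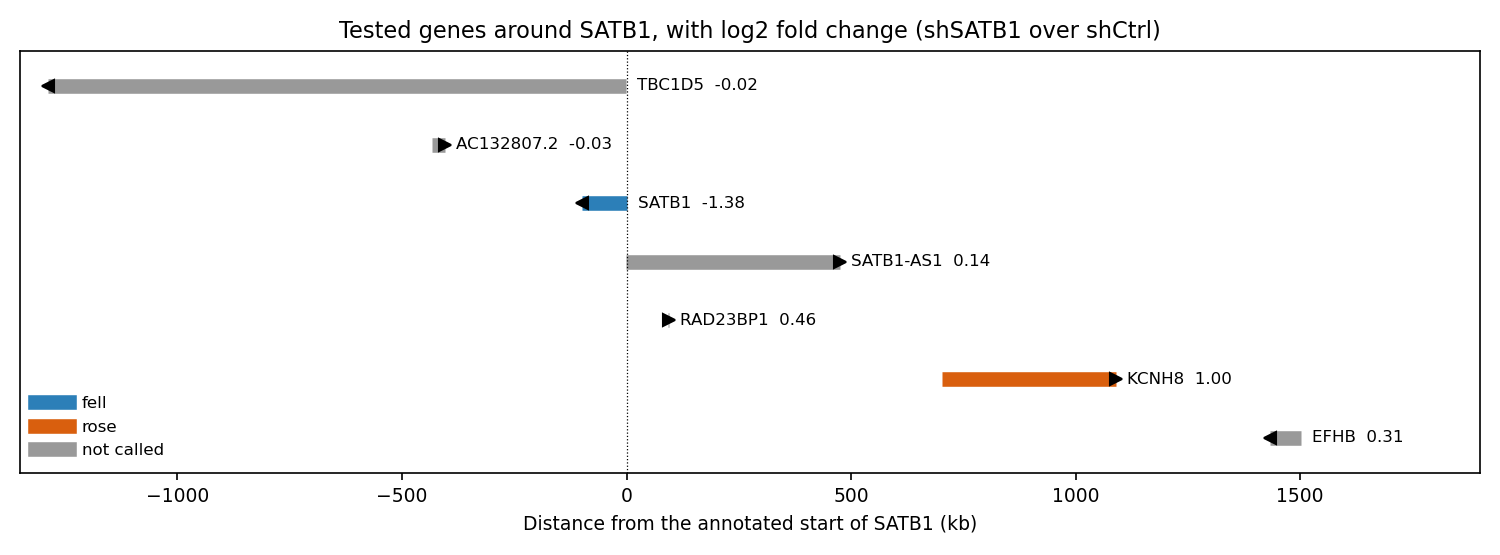
Tested genes around SATB1 on chromosome 3, drawn to scale by distance from the annotated SATB1 start (horizontal axis, kb), with arrowheads for the direction of transcription and the log2 fold change beside each name. SATB1 fell by 1.38, KCNH8 rose by 1.00, and TBC1D5 and SATB1-AS1, which overlap SATB1, were not called at -0.02 and 0.14.

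The genes with the level profile most like that of SATB1 were sought among the 9771 genes with at least 10 CPM, by Euclidean distance between log2 CPM profiles centred on their own mean over the 6 libraries. The nearest were CHI3L2 (distance 0.269), CDHR1 (0.284), TSHR (0.327), PPP3CA (0.343) and C9 (0.368). CHI3L2, a chitinase-like secreted protein, had 713.7 ± 30.1 CPM in shSATB1 and 1889 ± 150.6 CPM in shCtrl, a log2 fold change of -1.40. TSHR, the receptor of thyroid-stimulating hormone, stood at -1.14, and PPP3CA, a catalytic subunit of calcineurin, at -1.22. CDHR1, a photoreceptor cadherin, stood at -1.28 and C9, a complement component, at -1.21. These genes were chosen for their likeness over the same libraries, so their fold changes are a description and carry no test.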

How the data were processed

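Total RNA libraries of Jurkat cells were grouped by sample title into shSATB1 and shCtrl, 3 each. The authors deposited 1 table of raw counts per library, with Ensembl gene identifiers, neither normalized nor pooled. Per the submitters' processing notes, the tools were Trim Galore, STAR and HTSeq and the build hg38, with no versions or settings. The sources used here give neither an annotation release nor a strand setting. All 58735 gene identifiers matched GENCODE 29, which supplied symbols and coordinates. The 5 closing lines that name no gene stayed out of library sizes and tests. Among them, reads assigned to no annotated exon were 11.4% ± 0.436 in shSATB1 and 9.10% ± 1.23 in shCtrl (SD, n = 3 each). Ambiguous reads were 9.11% ± 0.180 in shSATB1 and 9.84% ± 0.301 in shCtrl. No libraries were duplicates: the chi-square per degree of freedom was 2.80 to 4.39 within shSATB1 and 5.25 to 20.5 within shCtrl. At this depth 3 reads equal 0.103 to 0.111 CPM, which covers counting error only.

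Counts were tested with edgeR 4.0.16 in R 4.3.3 (TMM scaling, low counts removed by filterByExpr at a minimum count of 10, quasi-likelihood F test, no covariate), with Benjamini-Hochberg adjustment over 17520 genes and a threshold of 0.05. The procedure was tested on simulated data. CPM are counts over TMM-adjusted library sizes, and RPKM are CPM per kilobase of union exon length, both computed here. Ratios of 2 genes used two-sided exact permutation tests over libraries, done with scipy 1.17.1. Alternatives were DESeq2 1.42.0 and its size factors, upper quartile scaling, other low-count filters, limma-voom (limma 3.58.1), a 1.2-fold null hypothesis, a replicate block, the unannotated share as a covariate, and leaving out each library.

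SATB1, SATB1-AS1, CUX1 and the gene lists were chosen with earlier results of these data known. Some genes of these lists are not reported here and were left out of the list counts and sums. The other CUT-class genes were named, with called partners and modifiers of at least 2 CPM, up to 8 called homeobox genes of largest change and at least 2 CPM, all neighbours past the filter, and the 5 profiles nearest to SATB1. Sequences came from RefSeq windows on GRCh38.p14, and no protein sequence was used here.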

Additional observations from a re-analysis of the deposited data

How the results depend on the processing

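SATB1 passed under every alternative run (log2 fold change -1.48 to -1.35), and SATB1-AS1 passed under none (0.12 to 0.19, edgeR, DESeq2 or limma adjusted p 0.0977 to 0.99995). Without single libraries SATB1 ranged from -1.40 to -1.35 and CUX1 from 0.28 to 0.51, and the log2 ratios to SATB1 from 1.47 to 1.55 for SATB1-AS1 and from 1.67 to 1.86 for CUX1. CUX1 was 0.39 and did not pass against a 1.2-fold null (edgeR, adjusted p = 0.212), and was -0.044 with the covariate (0.805). Of the other called genes named from the lists, CREBBP, ZFHX2, ZFHX3, DLX2, POU4F1 and KCNH8 passed against that null in edgeR. CSNK2A1 also lost its call with upper quartile scaling and with either other filter.

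Under the 1.2-fold null, the covariate and single-library omissions in turn, the number called was 1, 1 and 2 to 4 of the CUT class, 1, 2 and 5 to 8 of the partners, 0, 3 and 2 to 5 of the modifiers, 1, 2 and 1 to 9 of the neighbours, and 6, 7 and 8 to 18 of the other homeobox genes. Of the 9 modifiers tested in edgeR against the 1.2-fold null, 0 also had an unadjusted p under 0.05, while DESeq2 and limma-voom without that null called 4. Over all genes it was 758, 858 and 1650 to 3218 higher, and 698, 1262 and 1817 to 3562 lower in shSATB1. The stricter null lowers these numbers by construction. The covariate lowered each of them, and the omissions moved most of them both ways. For the covariate and the omissions the cause was not tested.

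With the covariate the direction turned for AC091390.3 (-0.51), AC132807.2 (0.36), EP300 (-0.10), HMBOX1 (-0.083), LRWD1 (0.0054), ONECUT1 (-0.13), ONECUT2 (-0.19), POLR2J2 (-0.16), both POLR2J3 identifiers (0.053 and -0.64), PRKRIP1 (0.19), RAD23BP1 (-0.96), SPDYE2 (-0.27), SPDYE2B (-0.25) and SPDYE6 (-0.44). It also turned without a filter for ALKBH4 (-0.0074) and CUX2 (-0.010), and with limma-voom for CUX2 (-0.0030). Single-library omissions turned AC073517.1 (-0.093 to 0.30), AC132807.2 (-0.10 to 0.11), ALKBH4 (-0.11 to 0.12), CUX2 (-0.16 to 0.34), EFHB (-0.15 to 0.61), IFT22 (-0.022 to 0.15), ORAI2 (-0.039 to 0.00023), PRKRIP1 (-0.12 to 0.020), RAD23BP1 (-0.079 to 0.84), SPDYE2B (-0.075 to 0.36) and TBC1D5 (-0.068 to 0.022), none of them called.

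Same-numbered libraries correlated at 0.0798, 0.0712 and 0.00320, and different-numbered ones at -0.0859 to 0.0157. All were under 0.1, the limit chosen here, so the numbers were not taken to pair the samples. With the replicate block SATB1 stood at -1.38, SATB1-AS1 at 0.14 and CUX1 at 0.40 (edgeR, adjusted p = 0.000632), with 2783 genes higher and 3120 lower. ONECUT1 (0.57, edgeR, adjusted p = 0.0483), LRWD1 and the POLR2J3 copy ENSG00000285437 gained a call with the block. The depth of under 1 CPM limits CUX2, ONECUT3 and the pseudogenes among the neighbours.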
